A study of Homo sapiens with 4 samples.

Results

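The 10 genes described here are oncofetal and progenitor markers of the liver: AFP, GPC3, IGF2, DLK1, IGF2BP1, IGF2BP2, IGF2BP3, LIN28B, EPCAM and KRT19. They were chosen by symbol, and all 10 were found among the 18398 RefSeq transcripts listed in each library. RNA was sequenced from Huh1 and Huh7, established lines of human hepatocellular carcinoma, each transfected with a negative control siRNA or with an siRNA against ODC1, with 1 library for each of the 4 combinations. All 4 groups are therefore transfected cultured tumour cells. The siRNA sequences, their dose and the time after transfection were not given in the sources used here. The labels name no replicate cultures, so p-values measure only the spread between these 4 libraries. Levels are RPKM, reads scaled to transcript length and to library depth, which can be compared between genes.

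Oncofetal genes are active in the fetal liver, fall after birth and return in part of the tumours of hepatocytes. They include secreted proteins (AFP, IGF2), surface proteins (GPC3, DLK1, EPCAM) and a cytoplasmic circuit of RNA-binding proteins. In that circuit LIN28A and LIN28B bind the precursors of let-7 microRNAs and block their maturation, and mature let-7 lowers mRNAs that pair with its seed, among them those of LIN28B, of the IGF2 mRNA-binding proteins and of HMGA2. EPCAM and the cytokeratin KRT19 mark bile duct cells and bipotent progenitors more than mature hepatocytes. ODC1, ornithine decarboxylase, makes the first polyamine, putrescine.

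The let-7 seed is what joins LIN28B and the 3 IGF2BP genes at the level of sequence, so the microRNAs are shown first. The RefSeq table (GRCh38.p14) held 9 mature members of the family, each of 22 bases, and all 9 share bases 2 to 8, in capitals below. Of the 4 shown, 1 carries another name, miR-98:
hsa-let-7a-5p: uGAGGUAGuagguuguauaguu
hsa-let-7b-5p: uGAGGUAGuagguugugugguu
hsa-let-7g-5p: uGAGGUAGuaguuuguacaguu
hsa-miR-98-5p: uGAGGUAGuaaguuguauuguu

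The reverse complement of that seed, CTACCTC, was searched on the transcribed strand of the 3′ untranslated regions in GENCODE release 29 (GRCh38). It stood 4 times in LIN28B, 4 times in IGF2BP1 and 1 time each in IGF2BP2 and IGF2BP3, and 0 times in AFP, GPC3, IGF2, DLK1, EPCAM and KRT19. Outside the 10 genes, HMGA2 held 4 matches and LIN28A 1. Of 11588 tested genes with such a region, 9.59% held at least 1 match. Among regions within 20% of the same length, 23.1% did for LIN28B, 29.8% for IGF2BP1, 11.6% for IGF2BP2 and 12.7% for IGF2BP3. The first match of each gene is shown with its flanks, the match in capitals, on the strand of the mRNA:
LIN28B chr6:105078818-105078842, plus strand: ttgcaaagtCTACCTCatgcaagta
IGF2BP1 chr17:49051067-49051091, plus strand: cgaagtaaaCTACCTCaaggtatga
IGF2BP2 chr3:185644212-185644236, minus strand: cagaagaagCTACCTCaggtgtttt
IGF2BP3 chr7:23311787-23311811, minus strand: tttactcaaCTACCTCaggtattca
A match is a description of the letters, and let-7 itself was not measured in these libraries.

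AFP lies next to ALB on chromosome 4, in a cluster of related genes for plasma carrier proteins. In GENCODE release 29 (GRCh38), ALB spans chr4:73397114-73421412 and AFP chr4:73431138-73456174, both on the plus strand, and gene positions given with the other genes are of the same release. Their promoters are shown because the 2 genes differed between the lines in opposite directions, as given below. Each run covers 250 bases before to 50 after the RefSeq start (GRCh38.p14, plus strand), chr4:73435971-73436270 for AFP and chr4:73404037-73404336 for ALB. Capitals mark matches, on either strand, to TATAAA (the TATA box) and CCAAT, which reads ATTGG on the other strand:
AFP: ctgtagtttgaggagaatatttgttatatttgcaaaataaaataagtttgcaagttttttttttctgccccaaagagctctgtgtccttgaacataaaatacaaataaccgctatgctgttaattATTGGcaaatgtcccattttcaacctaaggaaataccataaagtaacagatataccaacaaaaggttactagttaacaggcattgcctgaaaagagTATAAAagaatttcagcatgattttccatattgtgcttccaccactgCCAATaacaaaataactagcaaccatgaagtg
ALB: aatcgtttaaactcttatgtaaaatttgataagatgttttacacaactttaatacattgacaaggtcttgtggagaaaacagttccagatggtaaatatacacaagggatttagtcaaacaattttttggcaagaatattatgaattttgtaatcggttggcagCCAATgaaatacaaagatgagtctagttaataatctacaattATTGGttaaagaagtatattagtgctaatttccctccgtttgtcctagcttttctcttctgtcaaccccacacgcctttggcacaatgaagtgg
TATAAA began 29 bases before the start of AFP and was not in the ALB window, and 11.5% of the 35116 promoters in the table held it. Only these exact letters were searched and variants of the TATA box were not. The result therefore does not mean that ALB lacks a TATA box. CCAAT was found 2 times in each window, in letters that 34.6% of promoters held. The matches did not overlap each other.

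Depth, recovered from the steps of low RPKM values, ranged from 10215332 to 13384836 reads. ODC1 was at 103 RPKM in Huh1 with control siRNA and 25.01 with ODC1 siRNA, and at 167 and 7.501 RPKM in Huh7. It was thus lower with its siRNA in both lines, with 24.2% of its control level left in Huh1 (95% interval 22.3 to 26.2) and 4.49% in Huh7 (3.88 to 5.16). These intervals and those given below are exact Clopper-Pearson intervals on estimated reads and cover counting error only. With limma over both lines, 255 of 12039 genes changed with ODC1 siRNA (adjusted p threshold 0.05), of which 71.0% were higher. Upper quartile scaling made that 479 genes, of which 59.7% were higher. Of 8 alternative fits, 3 called 0 genes for the siRNA (no trend, no filter or no line term), so calls of single genes are followed over the other 5. Between the lines, limma called 73.9% of genes, 43.1% higher in Huh7 and 30.8% lower, and the median of all genes stood 0.13 higher in Huh7 on the log2(RPKM + 1) scale. All differences below are on that scale unless a ratio is named, and they understate changes of genes near 0.

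Defining markers of the tissue were present: ALB was the most abundant of the 20 mature hepatocyte markers in all 4 libraries, from 920 to 3447 RPKM. The 6 blood cell markers summed to 23.8 and 25.6 RPKM in Huh1 and to 3.99 and 6.32 in Huh7, nearly all from CD68. HBB was at 0 in all 4 libraries, as was CDH5, and the 4 endothelial genes listed summed to between 0.0595 and 0.120 RPKM. Fibroblast and stellate markers summed to 12.1 and 15.8 RPKM in Huh1 and to 253 and 325 in Huh7, mostly from COL1A1 and LUM, and the part of either list in the line differences was not tested. In bulk RNA, fewer cells of a kind and less RNA per cell cannot be told apart.

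The 10 genes divided the lines by level. In Huh1 with control siRNA the order was GPC3, IGF2BP3, IGF2BP1, AFP, LIN28B, IGF2BP2, EPCAM, KRT19, IGF2 and DLK1. In Huh7 with control siRNA it was AFP, GPC3, IGF2, KRT19, IGF2BP1, LIN28B, IGF2BP3, IGF2BP2, EPCAM and DLK1. Of the 10, 8 reached 1 RPKM in each Huh1 library and 9 in each Huh7 library. Their summed level was 280.4 and 269.8 RPKM in Huh1 with control and ODC1 siRNA, and 1502 and 1207 RPKM in Huh7. IGF2BP3 and IGF2BP1 were neighbours in Huh1 that lay close together, at 34.6 and 33.7 RPKM with control siRNA. LIN28B, IGF2BP2, EPCAM and KRT19 lay between 11.4 and 18.4 RPKM in Huh1, and their order was not the same in both libraries. IGF2 and KRT19 changed places in Huh7 with ODC1 siRNA.

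**Figure D1:**
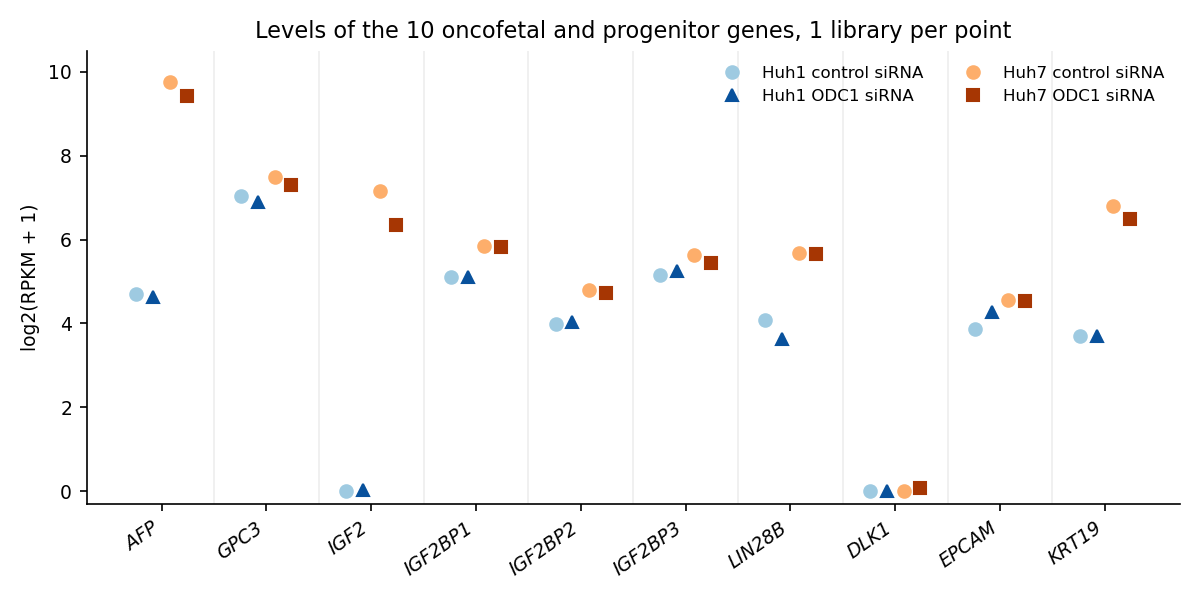
Level of each of the 10 genes in the 4 libraries, as log2(RPKM + 1), with 1 point per library and line and siRNA given by colour and symbol. AFP, IGF2, KRT19 and LIN28B stand apart by line, from 24.8 against 865 RPKM for AFP to 15.8 against 50.1 RPKM for LIN28B with control siRNA.

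Limma tested the 9 genes that reached 1 RPKM in any library, that is all but DLK1. All 9 were higher in Huh7 than in Huh1 at an adjusted p under 0.05, against 43.1% of all tested genes. At least 2-fold and called were 4 of the 9 (AFP, IGF2, LIN28B and KRT19), against 16.2% of all tested genes, and 10.3% were as far lower. IGF2 counts in both, though it entered only through Huh7, as both Huh1 libraries were under 1 RPKM. Its direction was thus fixed by the filter. With 1 library a group the 2-fold rule named the same 4 genes under either siRNA, where 17.0% of genes were higher and 10.2% lower in Huh7 with control siRNA, and 16.2% and 11.1% with ODC1 siRNA. The median difference of the 9 genes was 0.75, and that of all tested genes 0.13. With ODC1 siRNA none of the 9 changed by limma over both lines, against 2.12% of all tested genes. By direction, 1.5% of all tested genes rose and 0.615% fell. At an unadjusted limma p under 0.05 there were 2 of the 9 (AFP and GPC3), beside 2286 of the 12039 tested genes. Later counts at that cut are to be read against the same share. None reached 2-fold within a line, where 0.055% of genes rose and 0.0275% fell that far in Huh1, and 0.342% and 0.429% in Huh7.

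**Figure D2:**
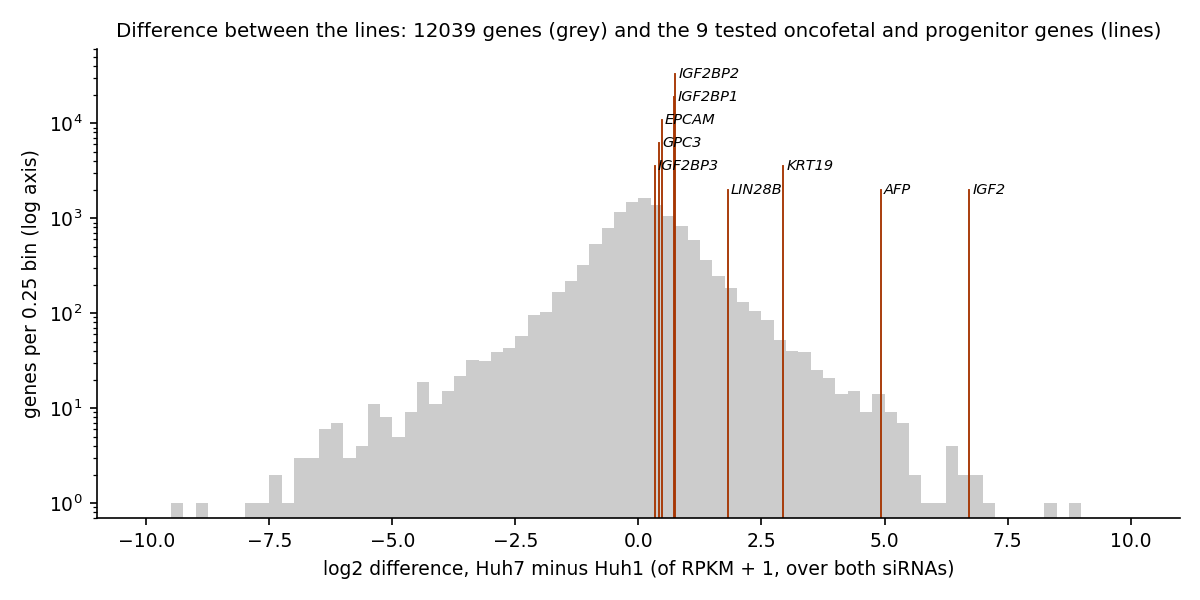
Difference between Huh7 and Huh1 over both siRNAs for all 12039 tested genes (histogram of log2(RPKM + 1) differences, genes per bin) and for the 9 tested oncofetal and progenitor genes (vertical lines with names). The 9 lines lie right of 0, from 0.34 for IGF2BP3 to 6.73 for IGF2.

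AFP, the alpha-fetoprotein that the fetal liver secretes as its main plasma protein, was at 24.8 and 23.8 RPKM in Huh1 with control and ODC1 siRNA and at 865 and 687 RPKM in Huh7. Both Huh7 libraries lay far above both Huh1 libraries. The ratio of Huh7 to Huh1 was 34.9 with control siRNA (32.5 to 37.4) and 28.9 with ODC1 siRNA (26.8 to 31.3). By limma the difference was 4.93 (SE 0.078, adjusted p = 9.65e-10), and 0.282% of tested genes had a larger one in favour of Huh7. Such shares, here and below, leave out genes that differ as much in favour of Huh1. AFP was the transcript of rank 3036 by level in Huh1 with control siRNA and of rank 62 in Huh7.

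ALB, its adult counterpart, ran the other way, at 3447 and 2806 RPKM in Huh1 against 1166 and 920 RPKM in Huh7. The line difference of ALB was -1.59 (SE 0.049, limma adjusted p = 2.16e-08). AFP therefore amounted to 0.720% and 0.847% of the ALB level in Huh1 with control and ODC1 siRNA, and to 74.2% and 74.7% in Huh7. Within a line this share moved little with ODC1 siRNA, while the lines differed widely.

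With ODC1 siRNA, AFP was at 95.8% of its control level in Huh1 (86.4 to 106) and at 79.5% in Huh7 (78.0 to 81.0). The Huh1 interval includes no change and the Huh7 interval does not, as far as counting error goes. Over both lines the difference was -0.20 (SE 0.078, limma adjusted p = 0.223), which did not pass. ALB did pass, lower with ODC1 siRNA by limma (difference -0.32, SE 0.049, adjusted p = 0.0232), in both lines. That call was lost under pseudocount 0.1 and under quantile normalization.

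Of 18 genes of the albumin cluster and regulators of AFP, all tested and AFP included, 7 were higher and 9 lower in Huh7, where 43.1% of all tested genes were higher and 30.8% lower. The counts of the lists that follow are to be read against the same 43.1% and 30.8%. As with IGF2, a gene of any list under 1 RPKM in both libraries of 1 line had its line direction fixed by the filter. GC, the vitamin D-binding protein of the same gene family, was at 148 and 114 RPKM in Huh1 against 27.3 and 12.4 RPKM in Huh7. GC fell with ODC1 siRNA in both lines (difference -0.72, SE 0.14, limma adjusted p = 0.0432), and that call was lost in 3 of 5 other settings that called any gene. It and ALB were the 2 of the 18 that fell, and 0 rose. ZHX2, a repressor of AFP in the mouse liver, differed between the lines by -0.26 (SE 0.096, limma adjusted p = 0.0346).

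GPC3 (chrX:133535745-133985895, minus strand), a glypican that carries heparan sulfate chains at the cell surface and is a clinical marker of liver cancer, led the 10 genes in Huh1 and came next to AFP in Huh7. It was at 131 and 118 RPKM in Huh1 with control and ODC1 siRNA and at 180 and 156 RPKM in Huh7. The lines did not overlap, but their gap was small beside that of AFP. The ratio of Huh7 to Huh1 was 1.37 with control siRNA (1.32 to 1.43) and 1.31 with ODC1 siRNA (1.25 to 1.37). By limma the difference was 0.42 (SE 0.063, adjusted p = 0.000299), and 35.2% of tested genes had a larger one in favour of Huh7.

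With ODC1 siRNA, GPC3 was at 90.4% of control in Huh1 (86.4 to 94.5) and 86.4% in Huh7 (83.0 to 90.0). It was lower in both lines, yet over both the difference of -0.18 did not pass (SE 0.063, limma adjusted p = 0.181). GPC1, a glypican of many tissues, showed the opposite line pattern, at 82.9 and 89.6 RPKM in Huh1 against 4.004 and 4.80 RPKM in Huh7. GPC3 accordingly made up 59.3% and 54.9% of the summed glypican level in Huh1, and 89.9% and 87.3% in Huh7. Of 15 tested glypican, syndecan and heparan sulfate genes, 9 were higher and 2 lower in Huh7. With ODC1 siRNA 1 of them rose, the syndecan SDC4 (difference 0.50, SE 0.075, limma adjusted p = 0.0221), and 0 fell. The call of SDC4 was lost under pseudocount 0.1 and quantile normalization.

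IGF2, on chromosome 11, the fetal insulin-like growth factor, was at 0.00615 and 0.0253 RPKM in Huh1 with control and ODC1 siRNA and at 142 and 80.001 RPKM in Huh7. The Huh1 values stand for an estimated 0.460 and 1.59 reads, both under the limit of 3 reads, so IGF2 was not detectable in Huh1 at this depth and no ratio is given. The Huh7 values rest on about 9651 and 4564 reads. By limma the line difference was 6.73 (SE 0.18, adjusted p = 8.63e-09), a size that depends on the pseudocount and was 9.85 with pseudocount 0.1. The read-through transcript INS-IGF2 was listed at 0 in all 4 libraries.

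IGF2 in Huh7 was also the gene of the 9 with the largest difference between siRNAs, at 56.5% of its control level (54.5 to 58.5). Its difference of -0.82 in Huh7 lay outside the range that holds the central 95% of all genes there, -0.618 to 0.58. In Huh1 it could not be measured, and over both lines the difference was -0.39 (SE 0.18, limma adjusted p = 0.274). The lower level in 1 Huh7 library has no replicate.

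Around the ligand, 14 genes of the IGF axis were tested, IGF2 included, and 9 were higher and 3 lower in Huh7. IGFBP3, the main plasma carrier of IGFs, was at 20.1 and 32.8 RPKM in Huh1 with control and ODC1 siRNA and at 92.0 and 223 RPKM in Huh7. IGFBP3 thus was higher in Huh7 and higher with ODC1 siRNA in each line, and the siRNA difference was 0.97 (SE 0.12, limma adjusted p = 0.0157). IGFBP4, a carrier that withholds IGFs from their receptor, rose too, from 28.6 to 43.5 RPKM in Huh1, and in Huh7 from 10.2 to 16.4 RPKM (limma adjusted p = 0.0174).

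IGFBP1, a liver carrier under insulin control, fell from 6.43 to 3.51 RPKM in Huh1, and in Huh7 from 2.53 to 1.32 RPKM (limma adjusted p = 0.0448). Of the 14 genes of the axis, 2 rose and 1 fell with ODC1 siRNA, against the 1.5% and 0.615% of all tested genes. IGFBP3 and IGFBP4 were called in all 5 other settings that called any gene, and IGFBP1 in 1. IGF2R, the receptor that clears IGF2, was at 45.4 and 55.2 RPKM in Huh1 against 46.5 and 70.8 RPKM in Huh7, and missed the threshold (limma adjusted p = 0.0503). IGF1R, the signalling receptor, was between 15.6 and 22.4 RPKM in all 4 libraries (siRNA difference 0.26, limma adjusted p = 0.176). IGFBP2 and IGFBP6 marked the lines in opposite directions, with line differences of 3.45 and -4.46 by limma.

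IGF2BP1, IGF2BP2 and IGF2BP3 bind IGF2 and many other mRNAs and steady or store them. They lie apart, at chr17:48997412-49055650 (plus strand), chr3:185643739-185825056 (minus) and chr7:23310209-23470467 (minus). IGF2BP1 was at 33.7 and 33.6 RPKM in Huh1 with control and ODC1 siRNA and at 56.8 and 55.9 RPKM in Huh7. IGF2BP2 was at 14.8 and 15.4 RPKM in Huh1 against 26.8 and 25.4 RPKM in Huh7. IGF2BP3 was at 34.6 and 36.8 RPKM in Huh1 against 48.3 and 42.5 RPKM in Huh7.

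For each of the 3, both Huh7 libraries were above both Huh1 libraries, and the libraries of a line lay close together. The line difference was 0.73 for IGF2BP1 (SE 0.074, limma adjusted p = 2.85e-05). It was 0.75 for IGF2BP2 (SE 0.088, limma adjusted p = 7.22e-05) and 0.34 for IGF2BP3 (SE 0.088, limma adjusted p = 0.00729). Between 23.1% and 39.2% of tested genes had a larger difference in favour of Huh7 than these. Relative to the median of all genes, the difference of IGF2BP3 was 0.21.

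Together the 3 summed to 83.1 and 85.8 RPKM in Huh1 against 132 and 124 RPKM in Huh7. The mix was alike in the 4 libraries: IGF2BP1 gave 39.2% to 45.1% of the sum, IGF2BP2 17.9% to 20.5% and IGF2BP3 34.4% to 42.9%. IGF2BP3 was the most abundant of the 3 in both Huh1 libraries, and IGF2BP1 in both Huh7 libraries. IGF2, the mRNA that names the family, was thus near 0 in a line where all 3 binding proteins were expressed.

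With ODC1 siRNA, IGF2BP1 was at 99.7% of control in Huh1 (95.0 to 105) and 98.4% in Huh7 (94.6 to 102). Both intervals include no change, and the difference over both lines was -0.01 (SE 0.074, limma adjusted p = 0.943). IGF2BP2 differed by 0.05 in Huh1 and -0.07 in Huh7 (limma adjusted p = 0.962). IGF2BP3 differed by 0.09 and -0.18, and was at 88.1% of control in Huh7 (82.9 to 93.6), with a limma adjusted p of 0.824 over both lines. Of 17 tested partners and targets of these proteins, 0 rose and 0 fell with ODC1 siRNA, and 6 were higher and 4 lower in Huh7, with a median line difference of 0.01.

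LIN28B (chr6:104936616-105083332, plus strand), which blocks let-7 maturation, was at 15.8 and 11.4 RPKM in Huh1 with control and ODC1 siRNA and at 50.1 and 49.5 RPKM in Huh7. Both Huh7 libraries were over 3-fold above both Huh1 libraries: the ratio was 3.17 with control siRNA (2.96 to 3.39) and 4.35 with ODC1 siRNA (4.001 to 4.73). By limma the line difference was 1.82 (SE 0.11, adjusted p = 1.13e-06), and 5.91% of tested genes had a larger one in favour of Huh7.

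With ODC1 siRNA, LIN28B was at 72.1% of control in Huh1 (65.6 to 79.2) and at 98.9% in Huh7 (94.0 to 104). Its difference of -0.44 in Huh1 lay outside the central 95% of all genes there, -0.347 to 0.443, and the Huh7 difference was -0.02. Over both lines it did not pass (difference -0.23, SE 0.11, limma adjusted p = 0.306). No test of the difference between the lines could be had with 1 library each.

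LIN28A, the paralog that is usual in embryonic stem cells, was at 0.169 and 0.0525 RPKM in Huh1 against 19.5 and 40.5 RPKM in Huh7. The Huh1 values stand for about 9.08 and 2.36 reads, so LIN28A was close to the limit of detection there. In Huh7 it was 2.08-fold higher with ODC1 siRNA (1.92 to 2.25), against a limma difference over both lines of 0.43 (SE 0.23, adjusted p = 0.359), which was 0.11 with pseudocount 0.1. LIN28A made up 28.0% of the summed level of LIN28A and LIN28B in Huh7 with control siRNA and 45.0% with ODC1 siRNA, and in Huh1 1.06% and 0.459%. LIN28B alone was level in Huh7 while the sum went from 69.6 to 90.0 RPKM.

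The wider let-7 circuit had 24 tested genes, LIN28B and the IGF2BP genes included. Of these, 18 were higher and 3 lower in Huh7, with a median line difference of 0.61, and 0 rose or fell with ODC1 siRNA (4 at an unadjusted p under 0.05). At that cut the albumin and AFP list had 8 of 18, the IGF axis 5 of 14 and the glypican list 5 of 15. IGF2BP partners and targets had 3 of 17, Notch genes 3 of 14 and EPCAM partners 5 of 13. Keratins had 3 of 8, mature hepatocyte markers 6 of 15, other oncofetal genes 3 of 21 and fibroblast and stellate markers 1 of 3. HMGA2, a fetal chromatin protein with 4 seed matches, was at 1.57 and 2.00 RPKM in Huh1 against 41.7 and 36.2 RPKM in Huh7. HMGA1, its relative, ran the other way, at 288 and 247 RPKM in Huh1 against 77.9 and 56.2 RPKM in Huh7. The line differences were 3.84 for HMGA2 (SE 0.12, limma adjusted p = 2.69e-08) and -2.00 for HMGA1 (SE 0.075, limma adjusted p = 6.72e-08).

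**Figure D3:**
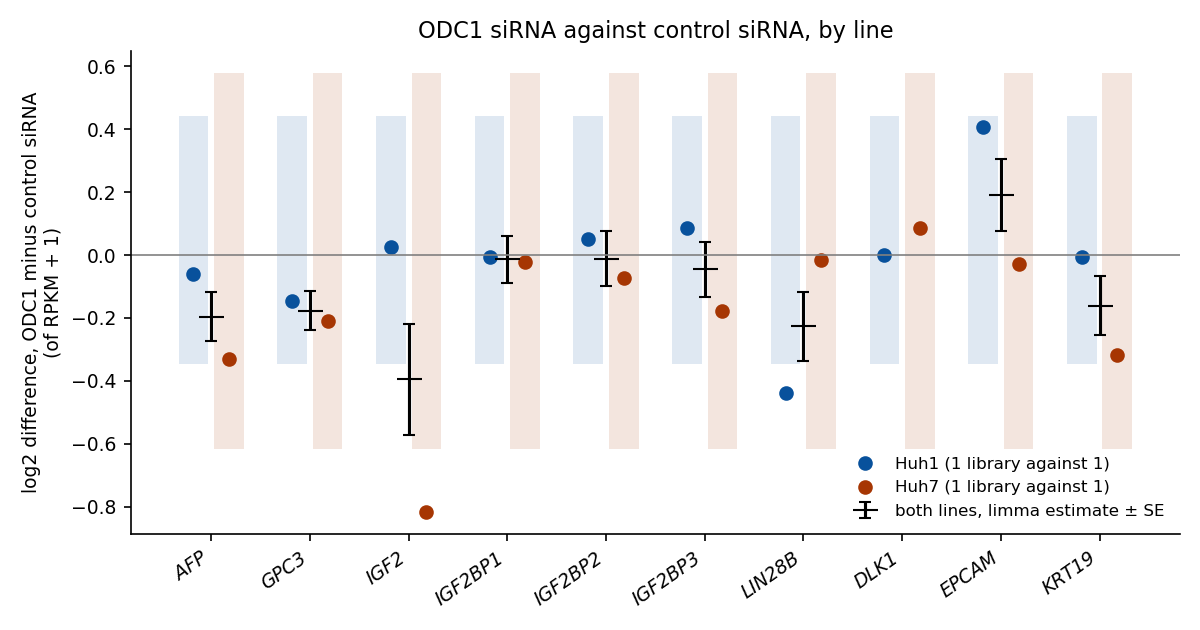
Difference between ODC1 and control siRNA for each gene in Huh1 and in Huh7, on the log2(RPKM + 1) scale, with 1 point per line, shaded bars for the central 95% of all tested genes in that line, and a black dash with its standard error for the limma estimate over both lines. IGF2 in Huh7 (-0.82) and LIN28B in Huh1 (-0.44) lie below their bars, and the points of the other genes lie within theirs.

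DLK1 (chr14:100725705-100738224, plus strand), a Notch-like surface protein of fetal hepatoblasts, was at 0 RPKM in both Huh1 libraries and in Huh7 with control siRNA, and at 0.0616 RPKM in Huh7 with ODC1 siRNA. The counts of 0 allow levels up to 0.0475, 0.0566 and 0.0521 RPKM in those 3 libraries, and the last value is about 2.97 reads. DLK1 was therefore not detectable at this depth, and it entered no test. Of 14 tested genes of the Notch pathway, 7 were higher and 3 lower in Huh7. JAG1, a Notch ligand of bile duct development, fell with ODC1 siRNA, from 26.0 to 18.7 RPKM in Huh1, and in Huh7 from 137 to 91.8 RPKM (difference -0.51, SE 0.075, limma adjusted p = 0.0210). It was the 1 of the 14 that changed, and it was called in all 5 other settings that called any gene.

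EPCAM (chr2:47345158-47387601, plus strand), an epithelial adhesion molecule of hepatic progenitors, was at 13.6 and 18.4 RPKM in Huh1 with control and ODC1 siRNA and at 22.7 and 22.2 RPKM in Huh7. The Huh7 libraries were alike and above both Huh1 libraries, of which the one with ODC1 siRNA came closer. The ratio of Huh7 to Huh1 was 1.67 with control siRNA (1.44 to 1.93) and 1.21 with ODC1 siRNA (1.04 to 1.40). By limma the line difference was 0.48 (SE 0.11, adjusted p = 0.00480).

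With ODC1 siRNA, EPCAM was at 135% of control in Huh1 (116 to 158) and at 98.0% in Huh7 (85.4 to 112). The intervals of the 2 lines do not overlap, but the difference over both lines of 0.19 did not pass (SE 0.11, limma adjusted p = 0.412). Of 13 tested genes of EPCAM processing and its partners, EPCAM included, 1 rose and 1 fell. FHL2, which binds the cleaved tail of EPCAM, rose from 5.74 to 8.10 RPKM in Huh1, and in Huh7 from 20.9 to 31.5 RPKM (limma adjusted p = 0.0421). CLDN1, a tight junction claudin, fell from 141 to 118 RPKM in Huh1, and in Huh7 from 300 to 207 RPKM (limma adjusted p = 0.0432). FHL2 was called in 1 and CLDN1 in 2 of the 5 other settings that called any gene.

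KRT19 (chr17:41523617-41528308, minus strand), a keratin of bile duct cells and progenitors, was at 12.04 RPKM in Huh1 with control siRNA and 11.99 with ODC1 siRNA, against 110 and 88.5 RPKM in Huh7. Both Huh1 libraries were low and alike, and both Huh7 libraries were high. The ratio of Huh7 to Huh1 was 9.18 with control siRNA (7.98 to 10.6) and 7.39 with ODC1 siRNA (6.33 to 8.66). By limma the line difference was 2.94 (SE 0.093, adjusted p = 2.44e-08), and 1.79% of tested genes had a larger one in favour of Huh7. Keratins have near-identical pseudogenes, so how reads were shared among copies is uncertain.

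With ODC1 siRNA, KRT19 was at 99.6% of control in Huh1 (81.5 to 121) and at 80.1% in Huh7 (74.5 to 86.1). The change in Huh7 is beyond counting error, while over both lines the difference was -0.16 (SE 0.093, limma adjusted p = 0.396). KRT18, a keratin of all hepatocytes, was at 986 and 962 RPKM in Huh1 against 1938 and 1602 RPKM in Huh7. KRT19 was thus 1.22% and 1.25% of the KRT18 level in Huh1 and 5.70% and 5.53% in Huh7. KRT7, the other biliary keratin, was at 84.4 and 84.7 RPKM in Huh1 against 0.660 and 0.485 RPKM in Huh7, a line difference of -5.77 (SE 0.10, limma adjusted p = 1.36e-09). Of 8 tested keratins, 3 were higher and 4 lower in Huh7, with KRT19 among the former and KRT7 among the latter.

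Progenitor and biliary markers were also found on both sides. Of 18 tested, EPCAM and KRT19 included, 13 were higher and 5 lower in Huh7, and 0 changed with ODC1 siRNA (1 at an unadjusted p under 0.05). Of the 18, 13 and 12 reached 1 RPKM in Huh1 with control and ODC1 siRNA, and 17 in each Huh7 library. PROM1, the stem cell antigen CD133, was at 3.83 and 4.19 RPKM in Huh1 against 101 and 95.5 RPKM in Huh7. SOX9, a transcription factor of bile duct progenitors, was at 3.72 and 4.01 RPKM in Huh1 against 30.4 and 29.3 RPKM in Huh7. SPP1, osteopontin, was at 2107 and 1769 RPKM in Huh1 against 13.1 and 14.1 RPKM in Huh7, a line difference of -7.05 (SE 0.086, limma adjusted p = 3.10e-10).

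Mature hepatocyte markers went mostly the other way from the 9 genes. Of 15 tested, 13 were lower and 2 higher in Huh7, with a median line difference of -1.55. All 15 reached 1 RPKM in Huh1 with control siRNA, but only 9 in each Huh7 library. Genes that entered only through Huh1 could only be lower in Huh7, so the counts and median lean that way. HPD, of tyrosine breakdown, was at 266 and 198 RPKM in Huh1 against 0.346 and 0.482 RPKM in Huh7. CPS1, the entry enzyme of the urea cycle, was at 95.0 and 63.5 RPKM in Huh1 against 0.0996 and 0.257 RPKM in Huh7. TTR, transthyretin, was an exception, higher in Huh7 (line difference 2.41), and it rose with ODC1 siRNA (difference 0.47, SE 0.097, limma adjusted p = 0.0494). The TTR call held in 1 of the 5 other settings that called any gene.

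**Figure D4:**
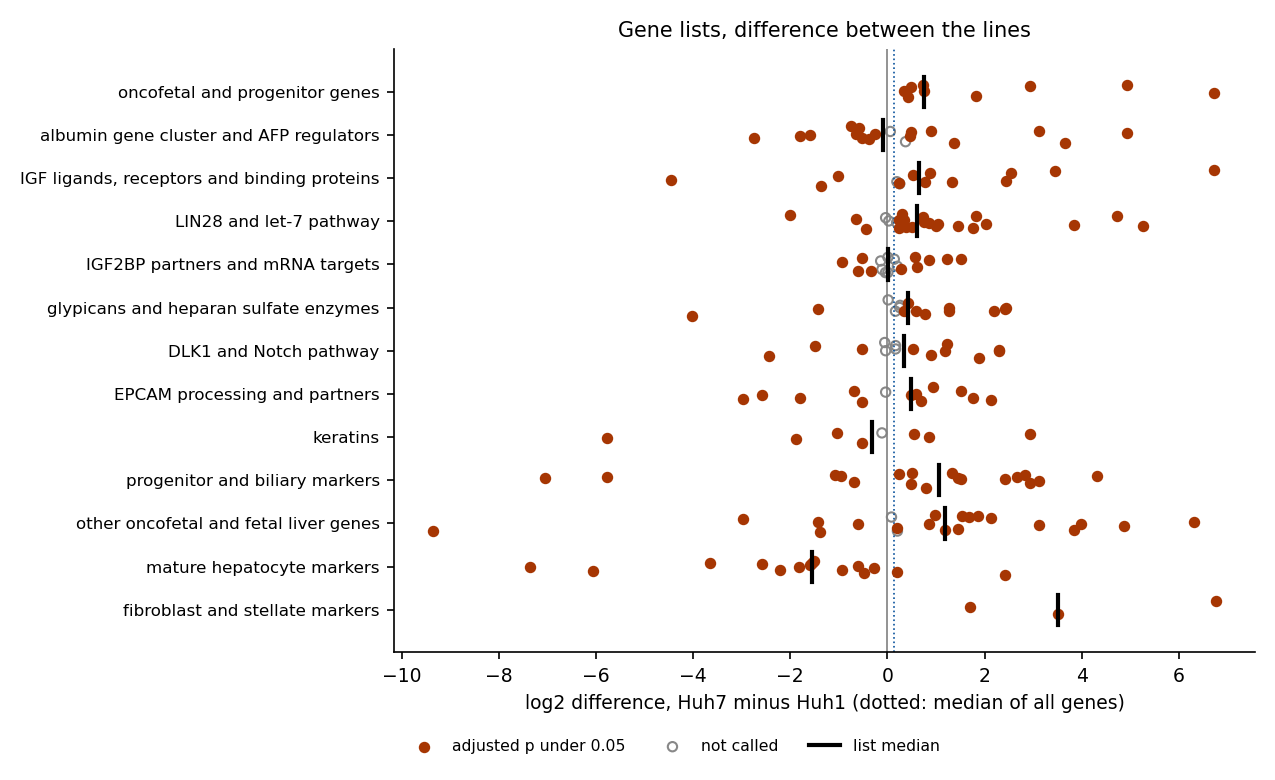
Line difference (Huh7 minus Huh1, log2(RPKM + 1)) of the tested genes of each list, with 1 point per gene, filled where limma called it, a bar at the list's median and a dotted line at the median of all genes. The median is 0.75 for the oncofetal and progenitor genes, -1.55 for mature hepatocyte markers and 1.05 for progenitor and biliary markers, beside 0.13 for all genes. Genes under 1 RPKM in both libraries of 1 line had their direction fixed by the filter.

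Over the 9 tested genes, the siRNA differences had a median of -0.005 in Huh1 and -0.18 in Huh7, beside 0.0167 and -0.00203 for all genes. Negative differences numbered 5 of 9 in Huh1 and 9 of 9 in Huh7, against 45.0% and 50.3% of all genes. IGF2 enters the Huh1 median and counts there as positive, though it was under the limit of detection in Huh1. The Huh7 differences share 1 control library and 1 ODC1 library, so they are not independent of each other. The line difference of each of the 9 genes came from 2 libraries a line that differ in siRNA. Line and any difference in culture or preparation between the lines cannot be told apart.

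**Figure D5:**
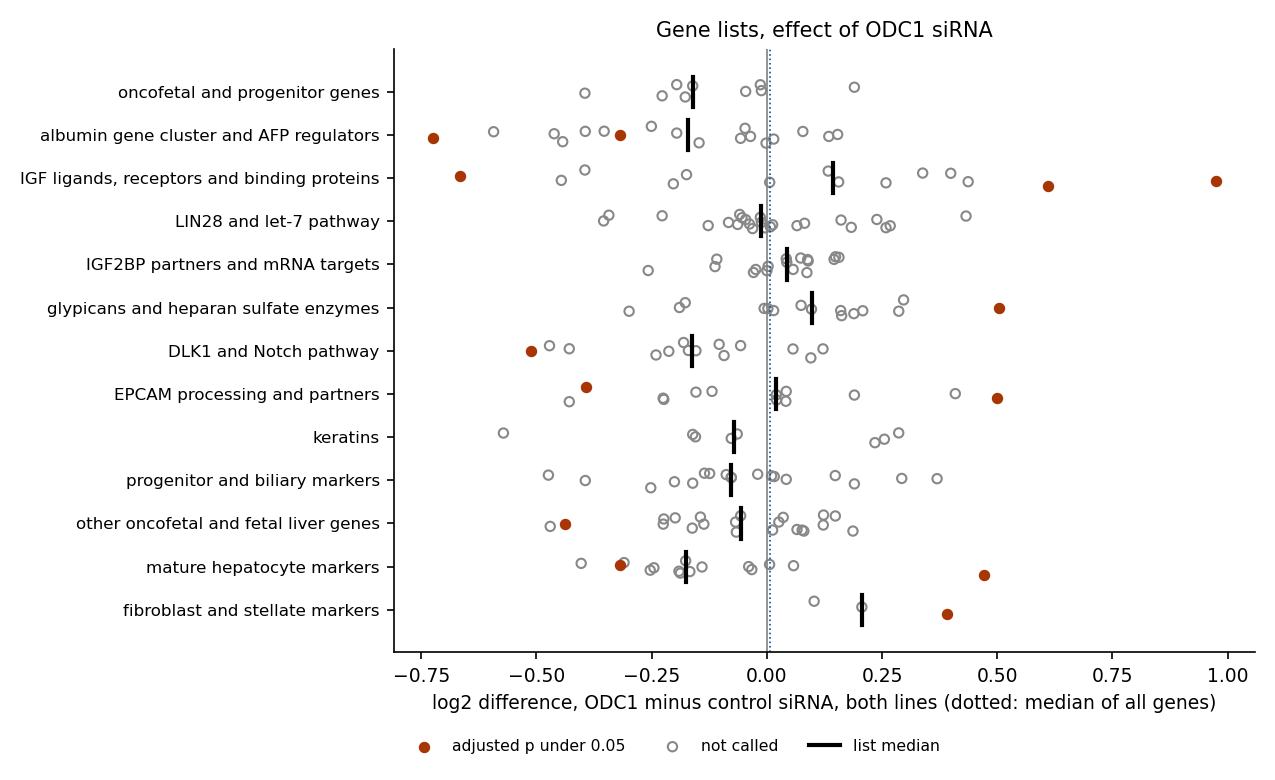
Difference between ODC1 and control siRNA over both lines, log2(RPKM + 1), of the tested genes of each list, with 1 point per gene, filled where limma called the gene, a bar at the median and a dotted line at the median of all genes. Among the IGF axis genes IGFBP3 (0.97) and IGFBP4 (0.61) are called higher, and none of the 9 oncofetal and progenitor genes is called.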

How the data were processed

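Per the labels' protocols, Trizol RNA went into Illumina TruSeq libraries. The submitters' processing notes name CASAVA 1.8.2, TopHat2 2.0.9 and build hg19. Which program counted the reads, with what annotation and strand setting, is not given in the sources used here. Antisense and overlapping genes may therefore share reads. The authors deposited RPKM values per RefSeq transcript. Values were analysed as log2(RPKM + 1) with limma 3.58.1 (R 4.3.3), with terms for line and for siRNA and a trend on intensity, for genes that reached 1 RPKM in any library. Adjustment was Benjamini-Hochberg with a threshold of 0.05. The fit has 1 residual degree of freedom and 7.42 prior ones, so a gene's standard error is set mostly by other genes. The line term pairs the control and ODC1 libraries. The fit was tested on simulated data with 200 genes changed per effect and no siRNA change that differed between the lines. In the real libraries 73.9% of genes were called between the lines, so that test does not show how the fit performs on them. Within a line a 2-fold rule was used with no test.

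Depth was recovered from ratios of values under 0.3 RPKM. Of these, 43.0% to 45.8% formed whole-number ratios (relative tolerance 1e-06), so reads are estimates, as RPKM times GENCODE 29 length times depth. Sequences are from GRCh38, not the build of the files. The genes and the 14 other lists were chosen with earlier results of these data known. Named genes of each list were those called for the siRNA, the 3 with the highest mean and the 3 with the largest line difference; ZHX2, IGF1R and SOX9 were named after their values were seen. Alternatives were other pseudocounts, filters, scalings, trends and terms, and leaving out each library.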

Additional observations from a re-analysis of the deposited data

Results flagged for a closer look

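Differences between ODC1 and control siRNA with opposite signs in the 2 lines were flagged for any of the oncofetal and progenitor genes. Genes of the other lists were flagged only where the difference was at least 0.2 in size in each line. That rule left out other genes with opposite signs, such as LIN28A (-0.152 in Huh1 and 1.02 in Huh7) and DKK1 (0.079 and -1.02). It flagged 5 genes, with 1 library per line and siRNA. No test was made of how the lines differ (not tested), and none of the 5 was called over both lines by limma. For EPCAM and IGF2BP3 the counting interval of 1 line includes no change (Huh7 for EPCAM, Huh1 for IGF2BP3), and for IGF2BP2 those of both lines do. EPCAM differed by 0.407 in Huh1 and -0.0274 in Huh7 on the log2(RPKM + 1) scale. IGF2 differed by 0.0272 in Huh1, where it was under the limit of detection, and by -0.817 in Huh7. IGF2BP2 differed by 0.0498 in Huh1 and -0.0734 in Huh7. IGF2BP3 differed by 0.0874 in Huh1 and -0.179 in Huh7. AKR1B10, a reductase of liver tumours that was at 5758 RPKM in Huh1 and 5.07 RPKM in Huh7 with control siRNA, differed by -0.359 in Huh1 and 0.733 in Huh7.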

How the results depend on the processing

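The 9 tested genes were called higher in Huh7, and not called for the siRNA, under the main settings and all 8 alternatives that gave a test. For IGF2 the direction was fixed by the filter wherever a filter was used. In the fits that called 0 genes for the siRNA, given below, the lack of a call says nothing about these genes. Over those alternatives the largest adjusted p of a line difference was 0.0386 for IGF2BP3, 0.0349 for EPCAM and 0.0145 for GPC3 (limma). The count of genes called for the siRNA was 255 as reported. It was 108 with a filter at 5 RPKM, 54 with pseudocount 0.1 and 89 with quantile normalization. It was higher, 332 and 479, with a trend on counting variance and with upper quartile scaling. It was 0 with limma without trend, without a filter and without a line term, where 1830, 2040 and 22 genes had an unadjusted p under 0.05; the cause was not tested. The replicate block is the line term, so the fit with no replicate block is the one without a line term. Within Huh1 the 9 genes past 2-fold became 45 with pseudocount 0.1 and 150 with a 1.5-fold rule, and within Huh7 the 88 became 236 and 650. Of the 9 oncofetal and progenitor genes, IGF2 passed the 1.5-fold rule in Huh7 and none did in Huh1. Between the lines, the 1.5-fold rule gave 5676 genes with control siRNA and 5652 with ODC1 siRNA. With control siRNA 62.6% of the genes past 2-fold were higher in Huh7, and 51.6% after quantile normalization. Leaving out a library gives the value of the other line or siRNA, with no test: EPCAM with ODC1 siRNA then ranged from -0.03 to 0.41, LIN28B from -0.44 to -0.02 and IGF2 from -0.82 to 0.03. Depth limits IGF2 and LIN28A in Huh1 and DLK1 in both lines.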

Other observations

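Other oncofetal and fetal liver genes were also split between the lines. Of 21 tested, 14 were higher and 5 lower in Huh7 by limma, 11 and 4 of them at least 2-fold, with a median line difference of 1.19. All 21 reached 1 RPKM in Huh7 with control siRNA, but only 14 in each Huh1 library. Genes that entered only through Huh7 had their direction fixed by the filter, so these counts and the median lean that way. CLDN6, an embryonic claudin, was at 0.0545 and 0.0650 RPKM in Huh1 with control and ODC1 siRNA, about 1 read each, and at 81.5 and 83.7 RPKM in Huh7. DKK1, a secreted inhibitor of Wnt signalling, was at 0.414 and 0.493 RPKM in Huh1 against 59.3 and 28.7 RPKM in Huh7. AKR1B10 stood on the other side, at 5758 and 4489 RPKM in Huh1 against 5.07 and 9.09 RPKM in Huh7. With ODC1 siRNA 1 of the 21 changed: ACSL4, which activates arachidonic acid, fell from 144 to 110 RPKM in Huh1, and in Huh7 from 97.4 to 69.4 RPKM (difference -0.44, SE 0.066, limma adjusted p = 0.0221). The ACSL4 call was lost under pseudocount 0.1 among the 5 other settings that called any gene.

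LUM, the proteoglycan lumican, rose with ODC1 siRNA in both lines, from 11.95 to 15.5 RPKM in Huh1, and in Huh7 from 143 to 193 RPKM (difference 0.39, SE 0.074, limma adjusted p = 0.0403). The LUM call was lost in 3 of those 5 settings (filter at 5 RPKM, pseudocount 0.1 and quantile normalization). COL1A1, a chain of type I collagen, was at 0.115 and 0.0763 RPKM in Huh1 against 107 and 128 RPKM in Huh7.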
